A study of Mus musculus with 6 samples.

Results

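The genes of the elastic fibre and of the lysyl oxidase family were followed in control and senescent mouse adult fibroblasts (MAFs). The group holds 10 genes, chosen by name from the 43346 genes of the count table. These are *Eln*, the fibrillin genes *Fbn1* and *Fbn2*, the fibulin genes *Fbln1*, *Fbln2* and *Fbln5*, and the lysyl oxidase genes *Lox*, *Loxl1*, *Loxl2* and *Loxl4*. All 10 genes had enough counts for the test across the 17589 genes tested. MAFs are primary cells that were grown from ear tissue of female adult C57BL6/J animals, with no gene deleted or added, and 3 control and 3 senescent samples were sequenced. Senescent MAFs were irradiated with X-rays at 20 Gy and kept for another 21 days, while control MAFs were sham irradiated. How long control MAFs were kept after that is not stated. Radiation, time in culture and growth arrest cannot be told apart in this design. Cells of both groups were grown in 10% serum at 3% oxygen, were given 100 nM dexamethasone for 2 hours to synchronize their circadian clocks, and were collected 12 hours later, so that a single time point is described. The labels do not say whether the replicates came from separate cultures or animals, and p-values therefore measure the spread between these samples, which may be technical.

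Elastic fibres give skin, vessels, lung and the elastic cartilage of the ear their recoil. Fibroblasts, smooth muscle cells and elastic chondrocytes secrete tropoelastin, the product of *Eln*, which collects on a scaffold of fibrillin microfibrils with the help of fibulins. Lysyl oxidases are copper enzymes that convert lysine side chains of tropoelastin and of fibrillar collagens into reactive aldehydes, from which the cross-links of both fibres form. Cultured fibroblasts are known as a source of most of these proteins.

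The coding sequences of these genes are shown first, because they bear on how well the genes can be told apart and on what elastin is made of. In the longest annotated coding sequence of *Eln*, 36.2% of the 861 codons, the stop codon included, were glycine codons, against 11.5% or less in the other 9 genes. A stretch of 90 bases from exon 31 of 37 (GRCm38, minus strand, chr5:134707556-134707645) is printed as the part of *Eln* with the most glycine codons, 19 of 30. Capitals mark the glycine codons.
Eln: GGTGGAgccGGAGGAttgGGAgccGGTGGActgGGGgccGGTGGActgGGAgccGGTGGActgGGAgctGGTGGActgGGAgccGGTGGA

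Cysteine codons, which stand for the disulfide-bonded repeats of fibrillins and fibulins, made up between 8.76% and 12.6% of the codons of these 5 genes and 0.232% of those of *Eln*. Among lysyl oxidases, the catalytic part is the most similar. As an example, the longest coding run shared by *Loxl1* and *Loxl2* is printed with 30 bases on either side. The stretch of *Loxl1* lies in exon 4 of 7 (GRCm38, minus strand, chr9:58293596-58293683) and that of *Loxl2* runs from exon 11 into exon 12 of 14 (plus strand, chr14:69689071-69690148, with the intron between them left out). Capitals mark the 28 shared bases.
Loxl1: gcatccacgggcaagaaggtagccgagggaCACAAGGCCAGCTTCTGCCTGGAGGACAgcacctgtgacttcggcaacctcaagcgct
Loxl2: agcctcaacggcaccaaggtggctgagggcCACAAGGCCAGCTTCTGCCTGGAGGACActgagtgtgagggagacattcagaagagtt

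Over the 88 bases, 60 were equal and 28 differed. Of the 45 pairs that the 10 genes form, 0 shared a run of 50 bases in any annotated transcript. The longest coding run shared by any pair was 32 bases, that of *Lox* and *Loxl1*, which is not printed. Reads were 100 bases long. Overlapping genes held few counts, at most 0.838% of those of the elastic fibre or lysyl oxidase gene they overlap, for *Gm27177* antisense to *Loxl2*.

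Cells labelled senescent carried the marks of senescence on the RNA level. *Mki67*, the proliferation marker, had 589 ± 17.3 CPM (read counts scaled to a common library size with TMM factors) in control and 9.60 ± 1.48 CPM in senescent MAFs (SD, n = 3 per group), and the CDK inhibitor genes *Cdkn1a* and *Cdkn2a* had log2 fold changes of 2.33 and 1.90. Libraries held between 50288454 and 82229553 counts. Fibroblast markers were detected in both groups, with a summed level of 14032 to 15893 CPM in control and 5841 to 6970 CPM in senescent libraries. Most of these sums was *Col1a1*, *Col1a2* and *Vim*. Their means were 4434, 5611 and 4101 CPM in control and 763, 1530 and 2459 CPM in senescent MAFs. Of the 8, 4 were lower, namely these and *Pdgfra* (log2 fold change -0.46). Another 3 were higher, *Dcn* (3.50), *Thy1* (1.47) and *Lum* (0.85). The median absolute log2 difference over genes was 0.0623 between senescent replicates 1 and 2 but 0.191 and 0.198 between each of them and senescent replicate 3, and its values are given where they matter. Markers of smooth muscle and pericytes summed to 1147 to 1430 CPM, most of which was *Acta2* (mean of 1171 CPM in each group). *Myh11*, *Des*, *Rgs5* and *Notch3* of this list had means of 0.981, 0.258, 0.708 and 4.91 CPM in control MAFs. In senescent MAFs their means were 4.91, 0.996, 11.4 and 8.54 CPM. Markers of keratinocytes, endothelium, macrophages, skeletal muscle, Schwann cells and melanocytes summed to at most 28.7 CPM per list.

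RNA of elastic fibre and lysyl oxidase genes was lower in senescent MAFs. With edgeR's quasi-likelihood test and a limit of 0.05 on the adjusted p, 9 of the 10 genes were called lower and 0 higher. Of all tested genes, 70.3% were called, 34.1% lower and 36.2% higher. Of the 9, 4 fell by more than 2-fold (*Eln*, *Fbn2*, *Loxl4* and *Loxl1*), which 12.3% of all tested genes did. In 9 of the 10, every senescent library lay below every control library, as in 37.0% of all tested genes, and in 0 of the 10 every senescent library lay above, as in 38.4%. The median log2 fold change over the 10 genes was -0.94, beside 0.01 over all tested genes. The 10 genes together took between 1.67% and 1.69% of the counts of control libraries and between 1.06% and 1.08% of those of senescent libraries. CPM is a share of each library and not an amount per cell, and whole cultures were measured. Fewer cells that make these RNAs, less of these RNAs per cell and more of other RNAs therefore cannot be told apart.

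**Figure D1:**
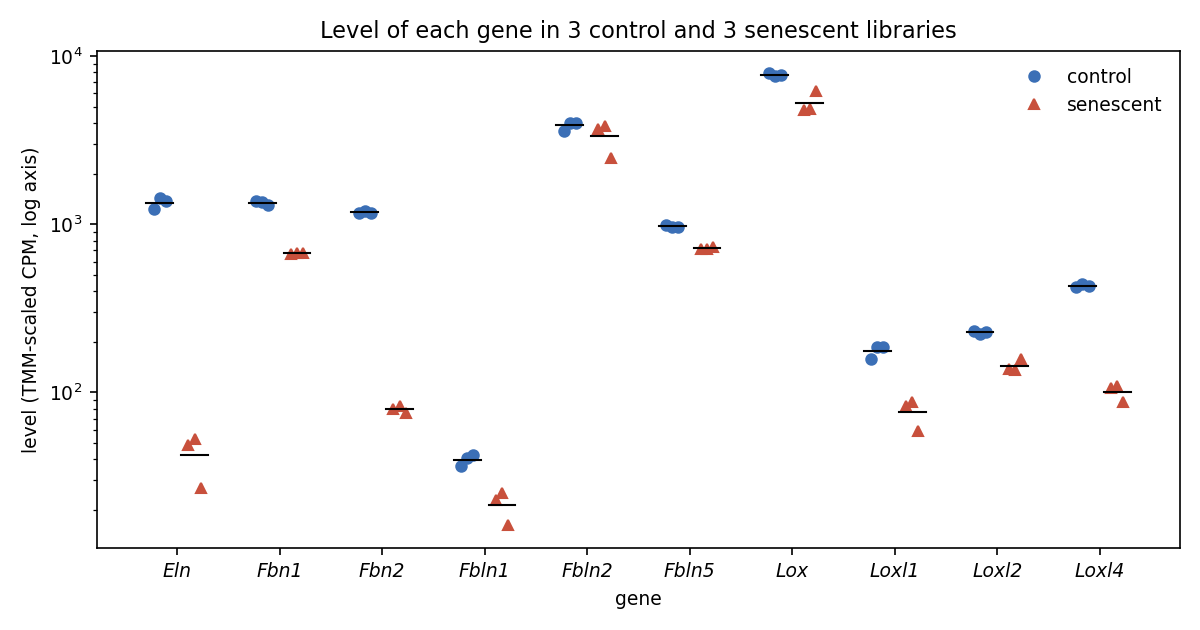
Level of each of the 10 genes in TMM-scaled CPM (counts scaled to a common library size, log axis) in 3 control (circles) and 3 senescent (triangles) libraries, with the group mean as a black line. Senescent libraries lie below control libraries for every gene but *Fbln2*, and the gap is widest for *Eln* and *Fbn2*.

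*Eln* (ENSMUSG00000029675, chromosome 5 of mm10 from 134703781 to 134747241), the gene of the elastic core protein, showed the largest decrease of the 10. It had 1225, 1434 and 1381 CPM in control replicates 1, 2 and 3 and 48.5, 52.7 and 27.1 CPM in senescent replicates 1, 2 and 3. The lowest control library was far above the highest senescent library, and senescent replicate 3 was the lowest of all. The means were 1347 ± 109 and 42.8 ± 13.7 CPM (SD, n = 3 per group), so that 3.17% of the control level was left. This was a log2 fold change of -4.98 (SE 0.26, 95% interval -5.57 to -4.38, adjusted p = 1.35e-06 with edgeR). By the size of its decrease *Eln* ranked 54 among the 12958 tested genes that averaged 100 counts or more. In control MAFs it held rank 57 of the 17589 tested genes by CPM, and in senescent MAFs rank 4782. Without senescent replicate 3, the value was -4.72 (adjusted p = 3.11e-10).

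Markers of chondrocytes, the cells of elastic ear cartilage, moved in the same direction as *Eln*. Of the 10 markers, 9 could be tested and these 9 were lower by more than 2-fold, and 0 of the 10 were at 0 in all libraries. Their summed level was 5380 to 5924 CPM in control and 368 to 454 CPM in senescent libraries, and the leading ones, *Cnmd* and *Col9a1*, had log2 fold changes of -5.40 and -5.06. *Matn1*, which marks cartilage, stayed below the filter with at most 1 count in a control library and at most 10 in a senescent library. Of the markers of smooth muscle, another source of elastin, 0 of 7 were called lower and 4 of 7 higher. Their sums, mostly *Acta2*, were 1279 to 1361 CPM in control and 1147 to 1430 CPM in senescent libraries. *Smtn* of this list lay lower in every senescent library than in every control library. It was called lower with the exact test of edgeR, with DESeq2, with a replicate term, and without senescent replicate 2 or 3. Whether a loss of chondrocyte-like cells or of chondrocyte RNA took part in the decrease of *Eln* or of the other 9 genes was not tested.

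Fibrillins form the microfibrils on which elastin is laid down. *Fbn2* (ENSMUSG00000024598, chromosome 18 from 58008623 to 58209926), the fibrillin gene best known from developing tissue, had 1173, 1192 and 1167 CPM in control replicates 1, 2 and 3 and 79.9, 83.6 and 75.5 CPM in senescent replicates 1, 2 and 3. Both groups were tight and far apart. The decrease was 14.8-fold (log2 fold change -3.88, SE 0.06, adjusted p = 1.02e-08). *Fbn1* (ENSMUSG00000027204, chromosome 2 from 125300594 to 125507993), the main fibrillin gene of adult tissue, had 1368, 1349.9 and 1308 CPM in control and 667, 674 and 676 CPM in senescent replicates 1, 2 and 3. It fell to about the same level in all senescent libraries, just short of a 2-fold decrease (log2 fold change -0.997, SE 0.05, adjusted p = 1.02e-06).

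The fibrillins changed unequally. Per kilobase of gene model, the only scale on which different genes can be compared, the ratio of *Fbn1* over *Fbn2* was 1.01, 0.979 and 0.968 in control replicates 1, 2 and 3 and 7.21, 6.97 and 7.73 in senescent replicates 1, 2 and 3. Control MAFs thus had like levels of both RNAs and senescent MAFs mostly *Fbn1*. The log2 ratio rose by 2.89, and the groups did not overlap, for which an exact two-sided permutation test of 3 against 3 samples gave its smallest possible p of 0.1. These ratios are taken within each library and do not depend on the scaling between libraries.

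Fibulins link elastin to microfibrils and cells. *Fbln5* (ENSMUSG00000021186, chromosome 12 from 101746565 to 101819055), which binds tropoelastin and is needed for elastic fibre assembly, had 989, 962 and 965 CPM in control and 711, 712 and 736 CPM in senescent replicates 1, 2 and 3. The decrease was the smallest of the 9 that passed the test, at 1.35-fold (log2 fold change -0.43, SE 0.05, adjusted p = 0.000113), and the groups did not overlap. *Fbln1* (ENSMUSG00000006369, chromosome 15 from 85205949 to 85286535), a protein of microfibrils and basement membranes, was the least abundant of the 10. It had 36.5, 40.9 and 42.4 CPM in control and 23.0, 25.4 and 16.2 CPM in senescent replicates 1, 2 and 3, a decrease of 1.85-fold (log2 fold change -0.89, SE 0.16, adjusted p = 0.00126). The groups did not overlap, and without senescent replicate 3 the value was -0.71.

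*Fbln2* (ENSMUSG00000064080, chromosome 6 from 91212455 to 91272540), a fibulin that binds fibrillin and other matrix proteins, was the only one of the 10 that did not pass the test. It had 3605, 4026 and 4027 CPM in control and 3677, 3822 and 2486 CPM in senescent replicates 1, 2 and 3. The groups overlapped, and senescent replicate 3 stood below the other 5 libraries. The 95% interval of its log2 fold change of -0.22 ran from -0.57 to 0.13 (adjusted p = 0.22). Leaving out senescent replicate 3 gave -0.04 (adjusted p = 0.404). *Fbln2* was the second most abundant of the 10 genes per kilobase in both groups. Levels per kilobase divide by the gene model of the count table, which for *Eln* is 2583 bases long, as long as its coding sequence, whereas the models of the other 9 genes are between 1514 and 4443 bases longer than theirs. Shares, ratios and places of *Eln* against other genes therefore depend on this shorter model. By this measure the share of *Fbln2* in the summed per-kilobase level of elastin, fibrillins and fibulins went from 41.8 ± 0.643% in control to 72.7 ± 4.43% in senescent MAFs, while that of *Eln* went from 32.9 ± 1.04% to 2.10 ± 0.370% (SD, n = 3 per group, exact permutation p = 0.1 each, the smallest possible).

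**Figure D2:**
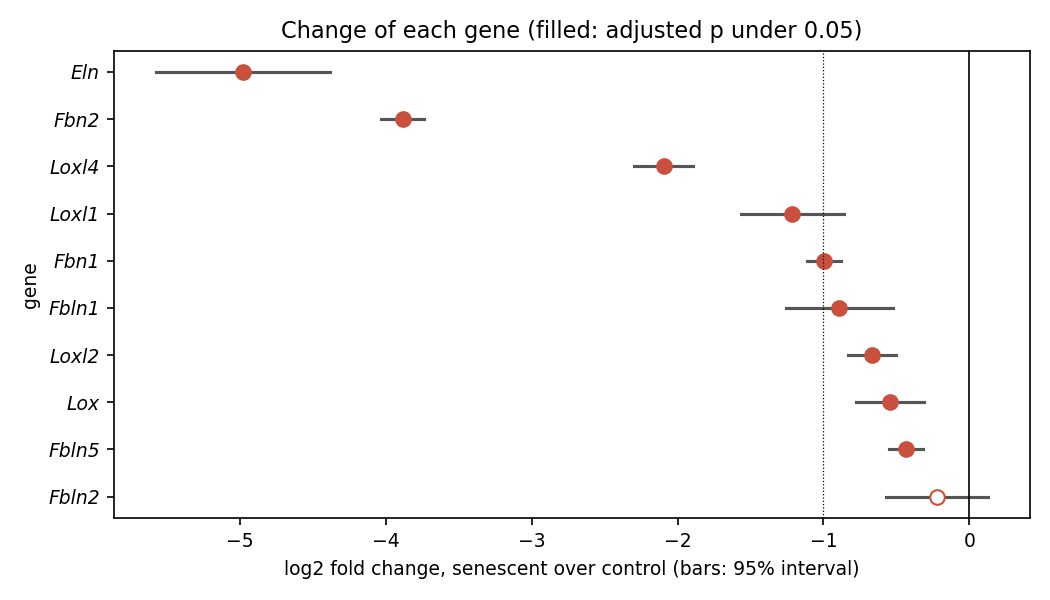
Log2 fold change of each gene, senescent over control, from edgeR's quasi-likelihood fit of 3 against 3 libraries, with 95% intervals as bars, a line at 0 and a dotted line at -1. The values run from -4.98 (*Eln*) to -0.22 (*Fbln2*), and the interval of *Fbln2* alone includes 0.

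All 4 lysyl oxidase genes of the group were lower in senescent MAFs. *Lox* (ENSMUSG00000024529, chromosome 18 from 52516069 to 52529867), which encodes the founding enzyme of the family, had 7895, 7574 and 7671 CPM in control and 4774, 4878 and 6199 CPM in senescent replicates 1, 2 and 3. Senescent replicate 3 was the highest senescent library here, yet still below all control libraries. The decrease was 1.46-fold (log2 fold change -0.55, SE 0.10, adjusted p = 0.00157), and -0.67 on the log2 scale without that library. Only 2 tested genes had more CPM than *Lox* in control MAFs, where its rank was 3, and in senescent MAFs its rank was 7.

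*Loxl4* (ENSMUSG00000025185, chromosome 19 from 42593982 to 42612813), a member with scavenger receptor domains, showed the largest decrease of the family. It had 424, 439 and 429 CPM in control and 106, 109 and 87.9 CPM in senescent replicates 1, 2 and 3. The decrease was 4.27-fold (log2 fold change -2.09, SE 0.09, adjusted p = 4.23e-07). *Loxl1* (ENSMUSG00000032334, chromosome 9 from 58287723 to 58313212), which works together with *Fbln5* in elastin cross-linking, had 158, 187 and 188 CPM in control and 83.2, 88.0 and 58.7 CPM in senescent replicates 1, 2 and 3. It was 2.32-fold lower (log2 fold change -1.21, SE 0.15, adjusted p = 0.000193; -1.04 without senescent replicate 3). *Loxl2* (ENSMUSG00000034205, chromosome 14 from 69609068 to 69695834), like *Loxl4* a member with scavenger receptor domains, had 233, 224 and 228 CPM in control and 138, 136 and 158 CPM in senescent replicates 1, 2 and 3. It was 1.59-fold lower (log2 fold change -0.67, SE 0.07, adjusted p = 7.28e-05). In none of the 4 genes did the groups overlap.

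*Lox* made up most of the summed level of these 4 genes in both groups. Its share in the summed per-kilobase level of the 4 genes was 89.0 ± 0.491% in control and 93.6 ± 1.21% in senescent MAFs (SD, n = 3 per group), and that of *Loxl4* went from 5.67 ± 0.187% to 2.08 ± 0.472%. For both shares the groups did not overlap (exact permutation p = 0.1, the smallest possible). The share of *Loxl2* was 2.35 ± 0.00936% and 2.28 ± 0.120% (exact permutation p = 0.6), and the groups overlapped. The ratio of *Lox* over *Loxl4* per kilobase was between 15.1 and 16.3 in control and between 39.3 and 61.8 in senescent libraries. Summed over the 4 genes, CPM went from 8549.8 ± 146 to 5605 ± 780.2, and summed over elastin, fibrillins and fibulins from 8764 ± 323 to 4864 ± 739 (exact permutation p = 0.1 each). *Loxl3*, the lysyl oxidase gene outside the group, is in none of these shares and sums. It had 262 ± 12.9 CPM in control and 232 ± 32.0 CPM in senescent MAFs, and the groups overlapped. Its log2 fold change of -0.18 did not pass the test (adjusted p = 0.16 with edgeR).

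The balance between elastin and the proteins that assemble and cross-link it differed between the groups. *Lox* over *Eln* per kilobase was 3.46, 2.84 and 2.98 in control and 52.9, 49.7 and 123 in senescent replicates 1, 2 and 3. *Fbln5* over *Eln* was 0.358, 0.297 and 0.309 in control and 6.50, 5.98 and 12.0 in senescent replicates 1, 2 and 3. In both ratios, every senescent library was above every control library and senescent replicate 3 was the highest (exact permutation p = 0.1 each, the smallest possible). The size of each ratio within a group depends on the shorter gene model of *Eln*, and the fold between groups does not.

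**Figure D3:**
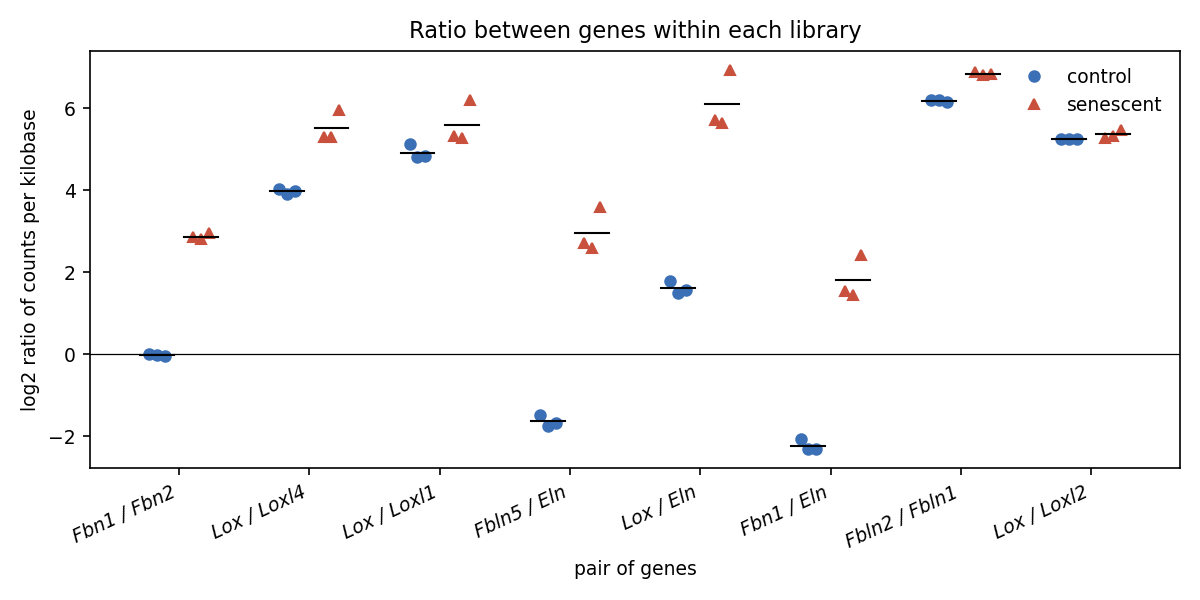
Log2 ratio of counts per kilobase between pairs of genes within each library, with control (circles), senescent (triangles) and group means (black lines). The ratio of *Fbn1* over *Fbn2* lies near 0 in control and between 2.80 and 2.95 in senescent libraries, and the 3 ratios over *Eln* are also far apart between groups, whereas *Lox* over *Loxl2* differs by 0.11.

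Ordered by CPM per kilobase, control MAFs had *Lox* (1604 ± 34.2), *Fbln2* (661 ± 41.4), *Eln* (521 ± 42.2), *Fbln5* (167 ± 2.58), *Fbn2* (112 ± 1.23), *Fbn1* (111 ± 2.55), *Loxl4* (102 ± 1.80), *Loxl1* (53.2 ± 5.14), *Loxl2* (42.3 ± 0.825) and *Fbln1* (9.14 ± 0.698). Of these neighbours, only *Fbn2* and *Fbn1* overlapped in their ranges. In senescent MAFs, *Eln* stood at place 8 with 16.6 ± 5.31 CPM per kilobase and *Fbn2* at place 9 with 7.60 ± 0.389. The ranges of *Loxl2*, *Loxl4*, *Loxl1* and *Eln*, at places 5 to 8, overlapped from neighbour to neighbour, and the other neighbours were apart. The places of *Eln* among the 10 are those its shorter gene model gives, and its place with a model that includes untranslated bases was not tested.

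Senescent replicate 3 differed from senescent replicates 1 and 2 in both directions. Against their mean it had 0.536 times the level of *Eln*, 0.663 times that of *Fbln2*, 0.671 times that of *Fbln1* and 0.687 times that of *Loxl1*, but 1.28 times that of *Lox* and 1.15 times that of *Loxl2*. *Fbn1* (1.01 times) and *Fbln5* (1.03 times) were about even. Without this library, the same 9 genes were called lower.

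Promoter sequences were looked at because the study followed BMAL1 at E-box and AP-1 motifs. RefSeq windows of 300 bases (GRCm38.p6), from 250 bases before to 50 after the start, were matched for 5 of the 10 genes (*Fbn1*, *Fbln1*, *Fbln2*, *Fbln5* and *Loxl4*) in 7 windows. *Eln*, *Fbn2*, *Lox*, *Loxl1* and *Loxl2* had no entry. For both windows of *Fbln5*, the run of bases directly after the start was not found unbroken in any annotated transcript of the gene, unlike in the other windows. Only the first part of the 50 bases was searched. The E-box letters CACGTG, which read the same on both strands, were in both overlapping windows of *Fbln1*, at the same place, and in 0 windows of the other 4 genes, beside 7.15% of all 32851 promoter windows. The AP-1 letters TGACTCA, or TGAGTCA on the other strand, were in 0 of the 7 windows, beside 5.2% of all windows, which says only that these letters are not there. The 250 bases before the start of *Fbln1* (plus strand, chr15:85205699-85205948) are printed for this E-box, in capitals, whose first base lies at -81 from the start. Those of *Loxl4* (minus strand, chr19:42612807-42613056) are printed as the promoter of the gene with the largest decrease among the 5. The *Loxl4* window had 75% G and C, more than 96.1% of all windows.
Fbln1: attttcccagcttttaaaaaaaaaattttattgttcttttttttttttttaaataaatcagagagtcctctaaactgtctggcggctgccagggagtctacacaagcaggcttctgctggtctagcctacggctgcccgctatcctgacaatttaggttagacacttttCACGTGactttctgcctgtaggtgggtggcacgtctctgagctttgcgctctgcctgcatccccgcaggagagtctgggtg
Loxl4: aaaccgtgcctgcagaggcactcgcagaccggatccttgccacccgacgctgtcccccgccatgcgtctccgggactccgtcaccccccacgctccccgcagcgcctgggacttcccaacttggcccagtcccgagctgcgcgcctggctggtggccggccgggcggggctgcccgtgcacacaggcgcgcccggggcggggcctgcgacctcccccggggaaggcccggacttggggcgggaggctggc

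Other genes of elastic fibres and of collagen cross-linking went in both directions. Of 55 such genes in 10 lists, 47 could be tested, and by the same call 14 were higher and 19 lower. The shares of all tested genes were 36.2% and 34.1%. Over the 47 genes, the log2 fold changes had a median of -0.18. Values of the single genes named are TMM-scaled CPM as mean ± SD over 3 samples per group.

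Among the fibulins, hemicentins and the lysyl oxidase gene outside the 10, 3 of 6 tested genes were higher and 1 was lower. *Efemp1*, which encodes fibulin-3, rose from 124 ± 4.89 to 304 ± 19.3 CPM, a log2 fold change of 1.29. *Efemp2*, which encodes fibulin-4, the partner that brings lysyl oxidase to tropoelastin, fell from 709 ± 28.9 to 376 ± 95.2 CPM. *Hmcn2*, a hemicentin gene, rose by 2.26 on the log2 scale from 0.968 ± 0.0782 CPM.

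Microfibril-associated proteins split as well, with 3 of 5 tested genes higher and 2 lower. *Emilin1*, a glycoprotein at the border of elastin and microfibrils, fell from 334 ± 41.2 to 80.9 ± 26.7 CPM, a log2 fold change of -2.04. *Mfap2* fell from 14.3 ± 1.47 to 3.06 ± 1.42 CPM, whereas genes of other microfibril proteins rose. *Mfap4* went from 0.427 ± 0.0585 to 2.23 ± 0.335 CPM (log2 fold change 2.37) and *Mfap5* from 18.3 ± 0.366 to 22.9 ± 0.498 CPM (0.32). The summed level of this list, mostly *Emilin1*, was 327 to 407 CPM in control and 90.1 to 147 CPM in senescent libraries. Of the 4 latent TGF-beta binding protein genes, whose products tie TGF-beta to microfibrils, 0 passed the test, with log2 fold changes from -0.45 to 0.30. Without senescent replicate 3, 2 of these 4 were called higher, and 1 was under 5 of the other alternatives. Of the TGF-beta ligands, *Tgfb1* rose from 16.2 ± 0.895 to 28.2 ± 4.45 CPM and *Tgfb2* from 17.8 ± 1.05 to 31.1 ± 2.02 CPM. Their log2 fold changes were 0.80 each. *Tgfb3*, with 74.4 ± 3.28 CPM in control and 66.1 ± 7.12 CPM in senescent MAFs, did not pass the test. The ligands summed to 104 to 111 CPM in control and 114 to 133 CPM in senescent libraries. Of 7 tested ADAMTS and ADAMTSL genes of microfibrils, 3 were higher, among them *Adamts6* (1.58) and *Adamtsl5* (1.34), and 2 lower, *Adamtsl4* (-1.70) and *Adamts10* (-0.73).

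**Figure D4:**
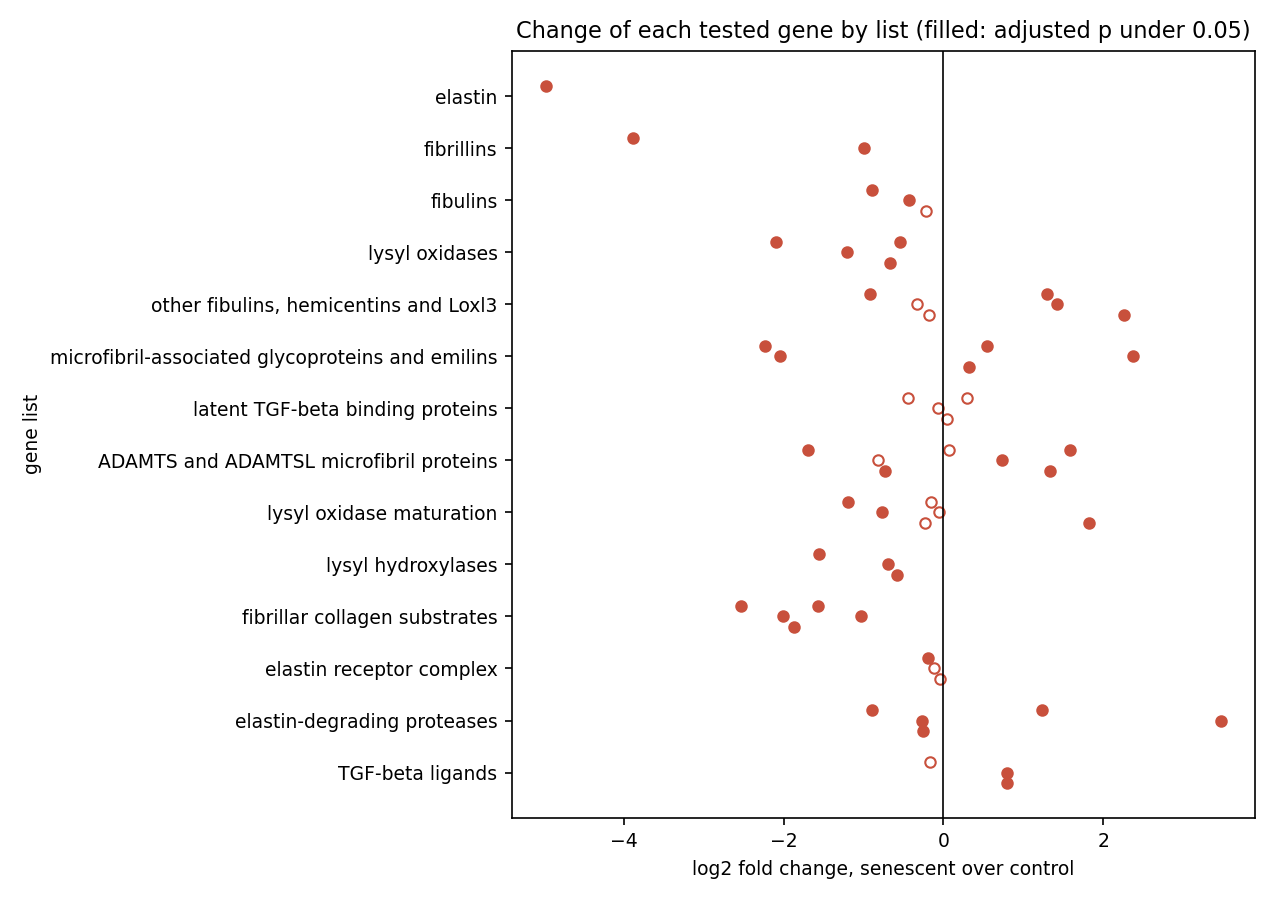
Log2 fold change, senescent over control, of each tested gene in the 4 groups of elastic fibre and lysyl oxidase genes (top) and in 10 lists of related genes, 1 circle per gene, filled where the adjusted p was under 0.05. All circles of the first 4 groups, of the lysyl hydroxylases and of the fibrillar collagens lie below 0, as do those of the elastin receptor complex, while the other lists hold genes on both sides.

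Of the 6 tested genes for the maturation of lysyl oxidase, 1 was higher and 2 were lower. The procollagen proteinase gene *Bmp1*, whose product also cleaves the lysyl oxidase precursor, fell from 164 ± 8.74 to 96.4 ± 17.3 CPM, but *Tll1*, a related proteinase gene, rose from 34.2 ± 1.51 to 121 ± 13.3 CPM. *Postn*, the gene of periostin, which helps this cleavage, fell from 947 ± 47.0 to 415 ± 44.6 CPM. The other 3 tested genes of this list did not pass. One of them, the copper transporter gene *Atp7a*, was called lower without senescent replicate 3 (log2 fold change -0.33) and with no filter on low counts (-0.24). *Tll2*, which was below the filter with 1, 4 and 2 counts in control and 12, 18 and 10 in senescent replicates 1, 2 and 3, was tested and called higher with no filter and without control replicate 1, 2 or 3 or senescent replicate 3. All 3 lysyl hydroxylase genes were lower, led by *Plod1* with a log2 fold change of -1.55 and *Plod2* with -0.69. All 5 fibrillar collagen genes, whose products are substrates of lysyl oxidases, fell by more than 2-fold, with a median of -1.87. *Col3a1* went from 3895 ± 115 to 971 ± 93.3 CPM and *Col1a2* from 5611 ± 329.9 to 1530.3 ± 239 CPM.

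Genes of elastin receptors and of proteases that can degrade elastin gave a mixed picture. In the receptor complex, *Glb1* was lower by 0.19 on the log2 scale (adjusted p = 0.0257 with edgeR), a call that 8 of the 13 alternatives lost, and the other 2 genes did not pass. *Ctsl*, the gene of the lysosomal protease cathepsin L, rose from 464 ± 14.2 to 1092 ± 55.0 CPM, and *Mmp9*, a gelatinase gene, from 0.308 ± 0.166 to 3.52 ± 0.798 CPM, on 6, 26 and 18 counts in control replicates 1, 2 and 3. *Mmp14* (log2 fold change -0.89) and *Mmp2* (-0.27) fell, as did 1 more of the 5 tested genes of the list, while the other 5 were below the filter. Among these, *Mmp12*, which encodes macrophage elastase and was picked after its values had been seen, had 0 counts in every control library and 7, 11 and 21 counts in senescent replicates 1, 2 and 3. Macrophage markers summed to 8.30 to 9.01 CPM in control and 18.3 to 21.1 CPM in senescent libraries, and none of the 6 was at 0 in all libraries. Such a rise was not particular to them. Endothelial markers went from 2.43 to 2.86 CPM in control to 7.53 to 8.34 CPM in senescent libraries, whereas the sums of keratinocyte and of skeletal muscle markers overlapped. Genes with any count numbered 21416 to 21833 in control and 25034 to 26281 in senescent libraries. A part of macrophages in the counts of *Mmp12* was not tested.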

How the data were processed

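Poly(A) libraries (TruSeq Stranded mRNA) of 3 control and 3 senescent samples were read as paired ends of 100 bases. Alignment was by STAR to mm10, run within MAPRSeq, and Subread gave the raw counts per gene that the authors deposited, with a length for each gene. Strand setting and treatment of reads with several positions are not given in the sources used here. Here filterByExpr left 17589 of 43346 genes, which were TMM-scaled and tested by robust quasi-likelihood in edgeR 4.0.16 under R 4.3.3, with group as the only term and Benjamini-Hochberg adjustment over all tested genes. The standard error is the log2 fold change divided by the square root of F. Levels per kilobase use the length column of the authors' table. Total counts lay between 50288454 and 82229553, and no count here came near 0 for the 10 genes, so the spread between replicates limits precision, not depth.

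The test was checked on simulated counts with few changed genes and a common spread for all genes. These data differ from that setting, so the check covers the working of the code and not the calls made here. Alternatives were RLE scaling, library size, no filter beyond 1 count, a minimum of 10 counts per library, the exact test of edgeR, DESeq2 1.42.0, a replicate term, and each library left out. The genes and lists were chosen with earlier results of these data known. Named outside the 10 genes were up to 2 genes per list and direction with the smallest p among those called (3 for the check of senescence). *Cnmd*, *Col9a1*, *Matn1*, *Loxl3*, *Tgfb3*, *Tll2*, *Atp7a* and *Gm27177* fall outside this rule and were picked after their values had been seen, as was *Mmp12*. The same holds for the smooth muscle and pericyte markers *Acta2*, *Myh11*, *Des*, *Rgs5*, *Notch3* and *Smtn*. It also holds for the fibroblast markers *Col1a1*, *Vim*, *Pdgfra*, *Dcn*, *Thy1* and *Lum*. Coding sequences came from GENCODE M21 (GRCm38), promoters from RefSeq.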

Additional observations from a re-analysis of the deposited data

How the results depend on the processing

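Under all 13 alternatives, the same 9 genes were lower at an adjusted p under 0.05, 0 were higher, and *Fbln2* did not pass. The number lower by more than 2-fold was 4 or 5, the additional gene being *Fbn1* without the filter or without control replicate 3, and *Fbln1* without senescent replicate 2. The log2 fold change of *Eln* lay between -5.15 and -4.72, that of *Fbn2* between -3.91 and -3.81, that of *Loxl4* between -2.14 and -1.997, and that of *Fbln2* between -0.33 and -0.04. *Glb1* lost its call in 8 alternatives, with an adjusted p of 0.151 with library size scaling, 0.0806 with at least 10 counts in every library, 0.0521 with DESeq2 and 0.0668 with the replicate block, and between 0.0553 and 0.0871 without control replicate 1, 2 or 3 or senescent replicate 2. *Mmp9* was not tested with at least 10 counts in every library, which left 1 protease gene higher in place of 2. With no filter, *Mmp12*, *Matn1* and *Tll2* were tested and called higher. The other genes named in the report by the rule for the lists kept their calls. The deviations of same-numbered libraries from their group means correlated at -0.37, 0.29 and -0.26, and not every library correlated best with its own number. The highest value, 0.50, was between control replicate 1 and senescent replicate 3, each the library that differed most from the others of its group. With 3 libraries per group, such values cannot decide whether equal numbers pair the samples. With the replicate block, 11624 genes were called in place of 12365, and all 9 genes kept their calls (*Eln* -5.03, adjusted p = 1.12e-05 by edgeR). Scaling by library size alone moved the median of all genes by 0.08 on the log2 scale. Depth did not limit the 10 genes, the lowest of which had 1278 counts in a library.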
